A study of Rattus norvegicus with 5 samples.

Results

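Heme oxygenase Hmox1, the quinone reductase Nqo1, thioredoxin reductase Txnrd1 and the 2 subunits of glutamate-cysteine ligase, Gclc and Gclm, are classical target enzymes of the transcription factor Nrf2, and they were followed here in rat lung after urban dust. Members were all probe sets that the platform annotation gives to 1 of these 5 genes: 10 of the 8740 probe sets and 5 of 4736 annotated genes, with 2 each for Hmox1, Nqo1 and Txnrd1, 1 for Gclc and 3 for Gclm. Each of 5 groups had 1 one-colour array, which received lung RNA pooled in equal amounts. The early array held lungs taken 2, 4 and 6 h after EHC-93, an urban particulate matter, was instilled into the trachea; the intermediate array held 15, 18 and 21 h and the late array 24, 32 and 40 h. The sham array held lungs from 2, 15 and 24 h after saline was instilled by the same route, and the untreated array held 3 rats with no instillation. Strain, sex, age, dose and the number of rats in the instilled pools are not given by the labels. Single arrays were compared without replicates and hence without an error; only the 3 exposed against the 2 unexposed arrays could be tested, and the number of arrays limits the precision.

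Nrf2, encoded by Nfe2l2, is bound in the cytoplasm by Keap1, which feeds it to the proteasome. Oxidants and electrophiles modify Keap1, and Nrf2 then enters the nucleus, pairs with a small Maf protein such as Mafk and binds antioxidant response elements. Of its targets, Hmox1 splits heme into biliverdin, iron and carbon monoxide and is also induced by heme itself and by heat stress. Nqo1 reduces quinones, among them those carried on combustion particles, and also answers to the aryl hydrocarbon receptor. Txnrd1 is a selenium enzyme that keeps cytosolic thioredoxin reduced. Gclc is the catalytic and Gclm the modifier subunit of the enzyme that starts glutathione synthesis.

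Promoter windows from RefSeq, covering 250 bases before to 50 after an annotated start in the build GRCr8, were at hand for Nqo1, Txnrd1, Gclc and Gclm, and not for Hmox1. They were searched on both strands for the antioxidant response element core TGACNNNGC, the AP-1 site TGANTCA, which can overlap the former, and the xenobiotic response element core GCGTG. The antioxidant core matched in the Gclm window (chr2:213031885-213032184, plus strand) and in 1 of the 2 Txnrd1 windows (chr7:22755855-22756154, minus strand). These windows are shown because the 2 genes share the motif while their array values, given further on, ran differently; capitals mark the match, which reads TGACTAAGC for Gclm and TGACAAAGC for Txnrd1 on the opposite strand.
Gclm: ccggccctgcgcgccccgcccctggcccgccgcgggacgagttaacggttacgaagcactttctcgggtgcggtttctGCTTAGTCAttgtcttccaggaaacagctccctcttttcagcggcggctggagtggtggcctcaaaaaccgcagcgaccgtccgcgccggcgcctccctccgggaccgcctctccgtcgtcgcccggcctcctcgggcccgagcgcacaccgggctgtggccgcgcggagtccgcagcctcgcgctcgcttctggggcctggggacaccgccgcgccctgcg
Txnrd1: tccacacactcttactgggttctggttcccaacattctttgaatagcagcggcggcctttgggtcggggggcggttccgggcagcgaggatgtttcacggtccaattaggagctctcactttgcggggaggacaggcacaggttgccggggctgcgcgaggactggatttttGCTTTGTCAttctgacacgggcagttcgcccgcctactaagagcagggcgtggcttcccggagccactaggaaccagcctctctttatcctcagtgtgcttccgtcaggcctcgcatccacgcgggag
The Gclm match lies 172 to 164 bases before the start, and the Txnrd1 match 78 to 70 bases before it. The antioxidant core matched in 12.1% of all 33469 RefSeq windows of this length, the AP-1 site in 7.33% and the xenobiotic core in 29.7%. No window of the members held the AP-1 letters. The xenobiotic core matched once in the Nqo1 and once in the Gclc window and at 2 places in the Txnrd1 window printed above. A match of letters is a description and no evidence of binding, and these windows leave out elements farther from the start.

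All values below are scaled intensities in arbitrary units, that is deposited intensities brought to a common median. A floor of 172.53, the 40th percentile of all scaled values, was set for folds, so a fold against a value under it is a lower bound. Of the 10 member probe sets, 9 exceeded this floor on 1 or more arrays. The level of a probe set cannot be set against that of another, since their hybridisation differs. Calls, higher or lower, needed a distance of at least 2-fold from the sham and from the untreated array alike. Over all 6188 probe sets above the floor on at least 1 array, 3.17% had an early call of higher, 0.824% an intermediate and 0.566% a late one. Called lower were 0.452%, 0.339% and 0.953%. Lung tissue was in evidence on every array: the summed intensity of 4 measured surfactant genes of alveolar type 2 cells (Sftpa1, Sftpb, Sftpc and Sftpd) lay between 135666 and 180083, and the club cell gene Scgb1a1 between 19738 and 25506. The other measured club cell genes were Cyp4b1, at 3805 to 5106, and Cyp2f4. Cyp2f4 was not even across the arrays, at 2643 on the untreated array and 605 to 940 on the others, sham included. Of 4 measured endothelial genes, Ace, Kdr and Pecam1 were above the floor on every array and Vwf on the untreated array alone, at 181; their sum lay between 7123 and 9496. The ciliated cell gene Foxj1 read 270.3 to 471, while Dnah1 of the same list was under the floor on every array.

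On the early array 5 of the 9 measurable member probe sets were called higher, against 3.17% of all probe sets. These were both of Hmox1, both of Txnrd1 and the bright one of Nqo1. The members were chosen with earlier results of these data known. No member probe set was called higher on the intermediate or late array, where 0.824% and 0.566% of all were. None was called lower on any. Gclc and Gclm gave no call on any exposed array. Saline lungs of the early hours alone were not measured, since the sham pool mixed 2, 15 and 24 h. In bulk lung, more RNA per cell and more cells that carry the RNA cannot be told apart.

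**Figure D1:**
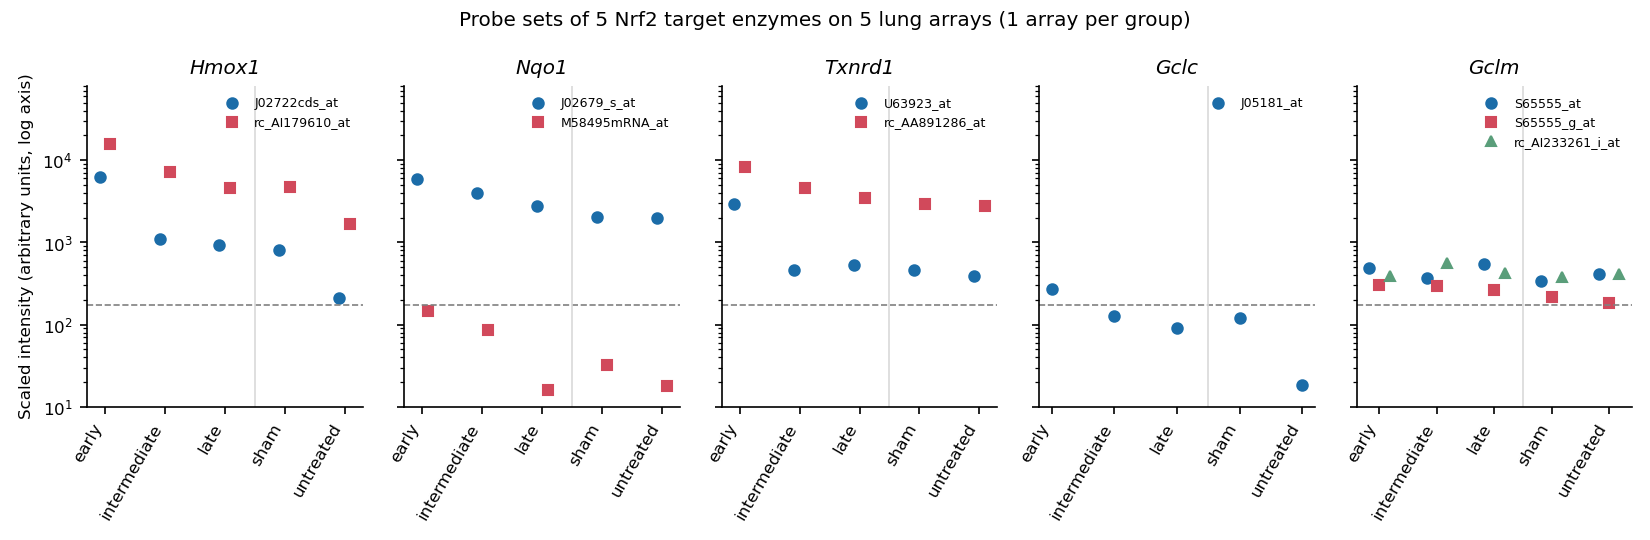
Scaled intensity (log axis, arbitrary units) of all 10 probe sets of the 5 genes on each of the 5 arrays; each point is 1 array and the dashed line is the floor of 172.53. Both Hmox1 and both Txnrd1 probe sets and the bright Nqo1 probe set are highest on the early array, while the 3 Gclm probe sets stay between 182 and 563 on every array.

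Hmox1 had the widest spread. The EST-derived probe set rc_AI179610_at read 15565 (early), 7293 (intermediate), 4583 (late), 4745 (sham) and 1699.98 (untreated). The coding-region probe set J02722cds_at read 6189.55, 1117, 937, 799 and 211 in the same order. In both, the early array was highest, the untreated array lowest, and the intermediate array second. The late array lay close to sham, at 0.966 and 1.17 of it. Early over sham was 3.28-fold by the former and 7.75-fold by the latter, and early over untreated 9.16-fold and 29.3-fold.

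The choice of control decides the account of the later hours for Hmox1. Against the untreated array, the intermediate array was 4.29-fold and 5.29-fold higher and the late array 2.70-fold and 4.44-fold. Against sham the same arrays were 1.54-fold and 1.40-fold higher and within 1.18-fold of it. The sham array itself was 2.79-fold and 3.79-fold above the untreated array, and these were the 2 member probe sets at least 2-fold apart between the controls. Over all probe sets, 1.66% were at least 2-fold higher and 1.92% lower on the sham array. For the other genes, sham over untreated lay between 0.836 and 1.20 in the probe sets above the floor there.

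Nqo1 was measured by J02679_s_at, which read 5872 (early), 4041 (intermediate), 2771 (late), 2058 (sham) and 1989 (untreated). All 3 exposed arrays lay above both controls, and the controls differed by 1.04-fold. The early array was 2.85-fold above sham and 2.95-fold above untreated, the intermediate array 1.96-fold and 2.03-fold, and the late array 1.35-fold and 1.39-fold. The intermediate array thus fell just short of a call. On the log2 scale its difference from untreated was 1.02, and between 0.88 and 0.97 with values as deposited or with the other scalings. The second probe set, M58495mRNA_at, was under the floor throughout, at 146, 85.1, 16.2, 31.9 and 17.8, and gives no fold here; with a floor of the 20th percentile it would be called on the early array, at least 1.38 (log2) above both controls.

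Txnrd1 was read by 2 probe sets that shared the early peak and differed in what followed. The EST-derived rc_AA891286_at read 8351 (early), 4654 (intermediate), 3442 (late), 2953 (sham) and 2766 (untreated), a stepwise fall with every exposed array above both controls. U63923_at read 2973 (early) and 462, 529, 465 and 388 on the others, so that the early array stood alone. Early over sham was 2.83-fold by the first and 6.39-fold by the second, and intermediate over sham 1.58-fold and 0.993-fold.

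Between probe sets of 1 gene, the gap in the early minus sham difference was 1.24 on the log2 scale for Hmox1 and 1.18 for Txnrd1. Among 736 genes with at least 2 probe sets above the floor on all arrays, the median gap between the brightest pair was 0.34, and 6.25% had a gap of at least 1. In both genes the dimmer probe set gave the larger fold. Where the probes lie along the transcripts was not known here. The 5′ to 3′ signal ratio of the control transcript for beta-actin, a sign of how complete the RNA or its copy is, was 43.1% on the early array and 9.07% to 24.4% on the other 4; for GAPDH it was 67.2% and 23.6% to 39.1%. Over those 4 arrays U63923_at stayed between 388 and 529, while J02722cds_at of Hmox1 ranged from 211 to 1117. The part of RNA completeness in the early values was not tested.

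**Figure D2:**
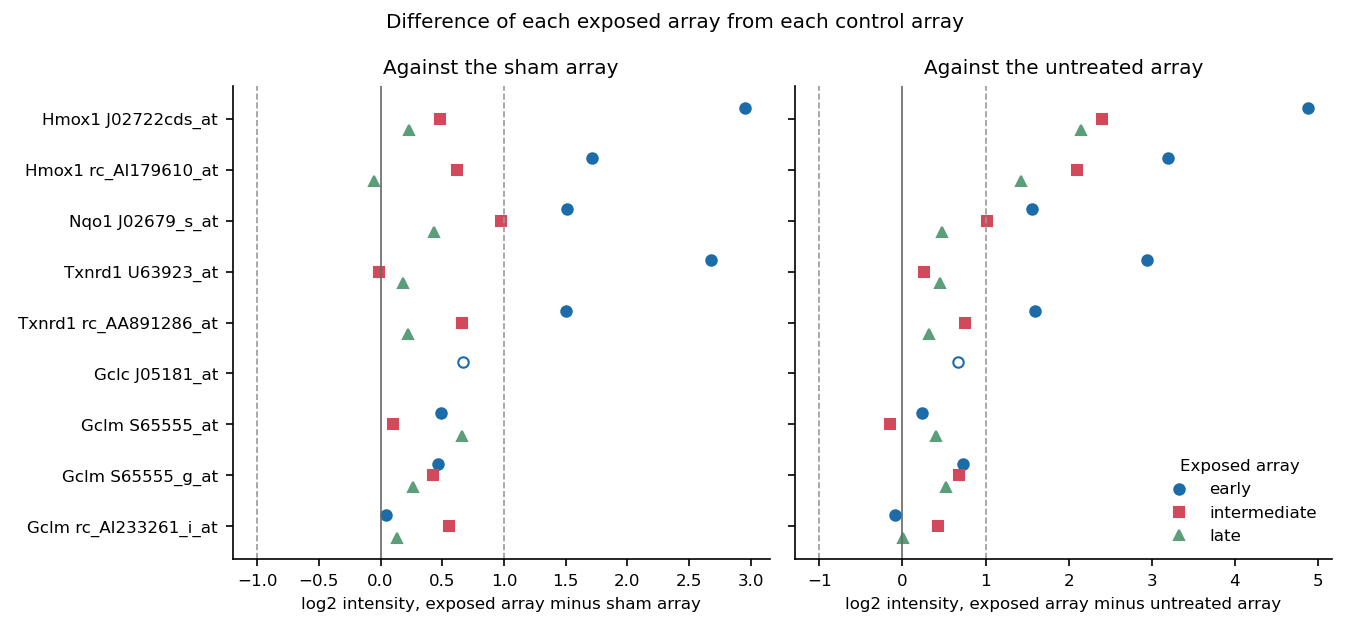
log2 difference of each exposed array from the sham array (left) and from the untreated array (right) for the 9 probe sets above the floor on at least 1 array; 1 point is 1 pair of arrays, open points are lower bounds and dashed lines mark 2-fold. Hmox1 differs between the panels, with late minus sham at -0.05 and 0.23 and late minus untreated at 1.43 and 2.15, while Nqo1 and Txnrd1 look alike in both.

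The catalytic subunit Gclc was above the floor on the early array alone, at 273. It read 129, 90.7, 121 and 18.3 on the intermediate, late, sham and untreated arrays. The early array was therefore at least 1.58-fold above both controls, and no other fold is given. At a floor of the 20th percentile instead, the same probe set would pass on the early array, at log2 differences of 1.17 from sham and at least 2.29 from untreated, so whether it is called depends on the floor.

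The modifier subunit Gclm was above the floor on all 5 arrays in all 3 probe sets, which showed no shared order of the arrays. S65555_at read 484 (early), 370.2 (intermediate), 545 (late), 344 (sham) and 412 (untreated). S65555_g_at, made from the same reference sequence, read 302, 293, 262, 218 and 182, so that here every exposed array was above both controls. The EST-derived rc_AI233261_i_at read 393, 563, 419.8, 382 and 419, with the intermediate array highest. The largest fold between any 2 arrays was 1.58, 1.65 and 1.47 in turn, all under 2-fold. The lowest value of S65555_g_at, 182 on the untreated array, was close to the floor. Gclm, whose window holds the antioxidant core, thus gave no call, while Txnrd1, with the core in 1 of its 2 windows, had early calls. The windows of Nqo1 and Gclc lack the core, and of these Nqo1 was called early and Gclc was not. A link between the motif and the calls was not tested.

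The early array was also set against the later exposed arrays, which leaves the controls out. At least 2-fold above both were 3 member probe sets, both of Hmox1 and U63923_at of Txnrd1; over all probe sets 2.57% were. Early over intermediate was 2.13-fold and 5.54-fold for Hmox1 (rc_AI179610_at and J02722cds_at), 6.43-fold and 1.79-fold for Txnrd1 (U63923_at and rc_AA891286_at) and 1.45-fold for Nqo1. Early over late was 3.40-fold, 6.61-fold, 5.62-fold, 2.43-fold and 2.12-fold in the same order. How much of the early excess over sham, in linear intensity, was seen later differed between probe sets, also within Hmox1 and within Txnrd1. A difference between the enzymes is therefore not shown. For Nqo1, by 1 probe set, 52.0% of this excess was present at the intermediate and 18.7% at the late hours. For Txnrd1 it was 31.5% and 9.06% by rc_AA891286_at, but -0.13% and 2.55% by U63923_at. For Hmox1 it was 23.5% and -1.503% by rc_AI179610_at and 5.90% and 2.56% by J02722cds_at. Among the 191 other probe sets called higher on the early array the median was 4.25% (intermediate) and 9.33% (late), with upper quartiles of 23.0% and 25.8%. On the intermediate array Nqo1 and the bright Txnrd1 and Hmox1 probe sets lay above that upper quartile; on the late array no member probe set did.

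**Figure D3:**
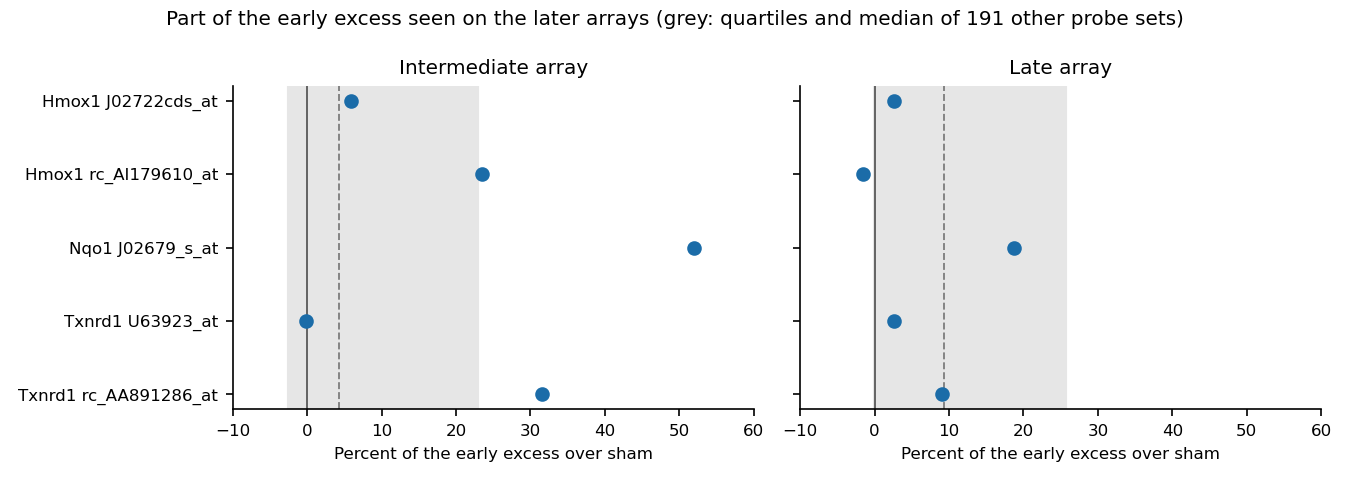
Percent of the early array's excess over sham that was present on the intermediate (left) and late (right) array, in linear scaled intensity, for the 5 member probe sets called higher on the early array; grey marks the quartiles and the dashed line the median of the 191 other probe sets with that call. Nqo1 is at 52.0% and 18.7%, and Txnrd1 U63923_at is near 0 on both.

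Averaged over the 3 phases, exposed minus unexposed was 2.18 ± 1.03 (log2, SE) for Hmox1 J02722cds_at, 1.502 ± 0.67 for Hmox1 rc_AI179610_at, 1.08 ± 0.87 for Txnrd1 U63923_at, 0.996 ± 0.33 for Nqo1 and 0.84 ± 0.39 for Txnrd1 rc_AA891286_at. For Gclm S65555_g_at it was 0.51 ± 0.15, for its other probe sets 0.29 ± 0.21 and 0.18 ± 0.20, and for Gclc 0.22 ± 0.25. Single arrays carried much of some of these values. Without the early array, U63923_at fell to 0.22, rc_AA891286_at to 0.49 and J02722cds_at to 1.32. Without the untreated array, J02722cds_at fell to 1.22 and rc_AI179610_at to 0.76. Gclm rc_AI233261_i_at fell to 0.02 without the intermediate array and to 0.11 without sham, and was 0.28 without the early array. For Gclm S65555_at the values ran from 0.16 without sham and 0.17 without late to 0.45 without the intermediate array. No left-out array moved Nqo1 J02679_s_at or Gclm S65555_g_at by over 1.5 times. In limma's test with Benjamini-Hochberg adjustment over 6188 probe sets no member passed 0.05. The adjusted p lay between 0.67 and 0.88, and in this fit 0 probe sets of the whole table passed (0%). At an unadjusted p under 0.05 limma listed 428 probe sets (6.92%), among them the member probe sets J02679_s_at of Nqo1 and S65555_g_at of Gclm, whose adjusted p was 0.71 and 0.67. Phase and the sham to untreated gap are part of the spread in this fit, and Hmox1 and U63923_at, with the largest early folds over sham, had the largest errors. All exposed arrays lay above both controls for 4 of the 9 probe sets, J02722cds_at of Hmox1, J02679_s_at of Nqo1, rc_AA891286_at of Txnrd1 and S65555_g_at of Gclm, against 13.5% of all probe sets. The same 4 fell from early over intermediate to late, an order that 3.07% of all probe sets had. As it is not said that the pools came from separate sets of animals, these p-values measure only the spread between arrays.

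Cell markers moved with some of these values. The summed intensity of 5 measured neutrophil-list genes (S100a8, S100a9, Padi4, Mmp9 and Selp), with values under the floor set to it, was 6604 (early), 5981 (intermediate), 4008 (late), 2912 (sham) and 2393 (untreated), the same order as Nqo1 and rc_AA891286_at of Txnrd1. Selp, the P-selectin gene, is not particular to neutrophils. Of the 5, S100a8, S100a9, Padi4 and Selp were called higher on the early array, where 2.54% of all measured genes were. The other, Mmp9, was above the floor on the late array alone, at 197. It read 36.4 (early), 115 (intermediate), 130 (sham) and 46.9 (untreated). The neutrophil genes Mmp8 and Cxcr2 were under the floor on every array. The sum of 4 erythroid genes was 14780 (early), 6666, 8807, 12962 (sham) and 6061 (untreated), led by Hbb, the beta chain of haemoglobin, at 10501, 4017, 5403, 9118 and 3544. Hmox1, whose substrate is heme, read 15565 (early), 7293, 4583, 4745 (sham) and 1699.98 (untreated) by rc_AI179610_at. By J02722cds_at it read 6189.55, 1117, 937, 799 and 211 in the same order. Of 5 measured macrophage-list genes (Ctsk, Mmp12, Fcgr2b, Cd14 and Lyz2), Mmp12 and Cd14 were called higher on the early array. Cd14 read 1455 there and 599.9 to 885 elsewhere. On the late array 3 were called higher, where 0.6% of all measured genes were. These were Ctsk at 709, Mmp12 at 822 and Fcgr2b at 1417, each at its peak. The sum of the 5 was 47795 on the early array and 49956 to 68045 elsewhere, but Lyz2 alone made up 44778 of the former. Csf1r of the same list was under the floor on every array. The part of neutrophils, macrophages and red cells in the enzymes' values was not tested.

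Further genes of the pathway were taken from 7 lists with 99 symbols, of which 58 were measured, each by the probe set of highest mean log2 intensity. None was called higher or lower on the early array, where 2.54% of the 3667 measured genes were called higher and 0.3% lower. Set against the average of the controls, the 58 had a median log2 difference of -0.05, against -0.01 over all measured genes and 1.54 over the 5 enzymes by the same probe set rule. On the intermediate array 1 was higher (background 0.873%) and none lower (0.218%); on the late array none was higher (0.6%) and 1 lower (1.04%).

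Regulators come first in the pathway. Nfe2l2, the Nrf2 gene itself, read 1519.79 (early), 1083 (intermediate), 1255 (late), 862 (sham) and 1203 (untreated), so the early array was 1.76-fold above sham and 1.26-fold above untreated. Its second probe set gave 1.30-fold and 1.13-fold. Mafk, the small Maf partner, read 2275 on the early array and 1292, 1150.3, 1249 and 1192 on the others, 1.82-fold and 1.91-fold above the controls. These were the 2 measured regulators, and neither reached 2-fold.

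Of 8 measured genes of glutathione synthesis and recycling, Ggt1 and Gpx2 gave the calls. Ggt1, which cleaves extracellular glutathione, was above the floor on the intermediate array alone, at 766, at least 4.44-fold above both controls, and the call was lost with the floor at the 60th percentile (0.74 on the log2 scale). Gpx2, a glutathione peroxidase of epithelia, read 6023 (early), 5688 (intermediate), 1649 (late), 3429 (sham) and 4033 (untreated). Its late value was 0.481 of sham and 0.409 of untreated, while its early value was 1.76-fold and 1.49-fold above them. The list median was 0.26, 0.11 and -0.12 in the 3 phases.

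None of 15 measured glutathione S-transferases was called on any array, and their medians were -0.18 (early), 0.09 (intermediate) and -0.03 (late). Gstp1 read 5503, 5237, 4834, 4686 and 5158 in the order early, intermediate, late, sham and untreated, all within 1.18-fold of the sham array. The microsomal Mgst1 was highest on the intermediate array, at 12668 where the sham array read 8334 and the untreated 8818. Of 12 measured enzymes and pumps for quinones, aldehydes and drug conjugates none was called, and their median was -0.42 on the early array, the lowest of the 7 lists. Its brightest members were Aldh1a1, at 14352 on the early against 16481 and 19846 on the control arrays, and the sulfotransferase Sult1a1, at 3819 against 4204 and 3717; a second Sult1a1 probe set read 0.727 and 0.868 of the controls. Aldh3a1 of the same list differed from these, at 705 on the early array and 290.1 to 368 on the others, 1.92-fold above sham and 2.17-fold above untreated; it was singled out after its values were seen.

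None of 8 measured thioredoxin partners and peroxiredoxins was called either (medians -0.10, 0.22 and 0.12). Txnip, which binds and holds back thioredoxin, read 8402 on the early against 8599 and 9507 on the control arrays, but a second probe set was 1.39-fold and 1.19-fold above them there. Prdx6, a peroxiredoxin abundant in lung, read 13477, 19156 and 17639 on the exposed arrays against 16044 and 17268. Its other probe sets ran differently: early was 1.14-fold and 1.21-fold above the controls by AF014009_at and 1.29-fold and 1.30-fold by Y17295cds_s_at, with the intermediate array lowest in both. Among 5 measured enzymes of NADPH supply, which feeds Nqo1 and Txnrd1, none was called (medians 0.14, 0.42 and 0.37); Taldo1 read 5687, 6870.03 and 6835 against 5069.94 and 5227, and Idh2 3979.5, 7773 and 6957 against 4759 and 6548, while a second Idh2 probe set was 1.35-fold above sham and 0.987 of untreated on the early array. Of 8 measured heme and iron genes none was called by its brightest probe set (medians 0.20, -0.07 and 0.01). Haptoglobin Hp, which binds free haemoglobin, read 3501, 3697 and 2875 against 2202 and 2014. The iron transporter Slc11a2 read 3245, 2727 and 2116 against 2230.13 and 1347, so that, like Hmox1, its sham value exceeded its untreated one. Its probe set rc_AA892390_s_at differed in both respects. By it the early array was 2.64-fold above sham and 2.66-fold above untreated, which meets the 2-fold rule, and sham and untreated read 648 and 643.

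**Figure D4:**
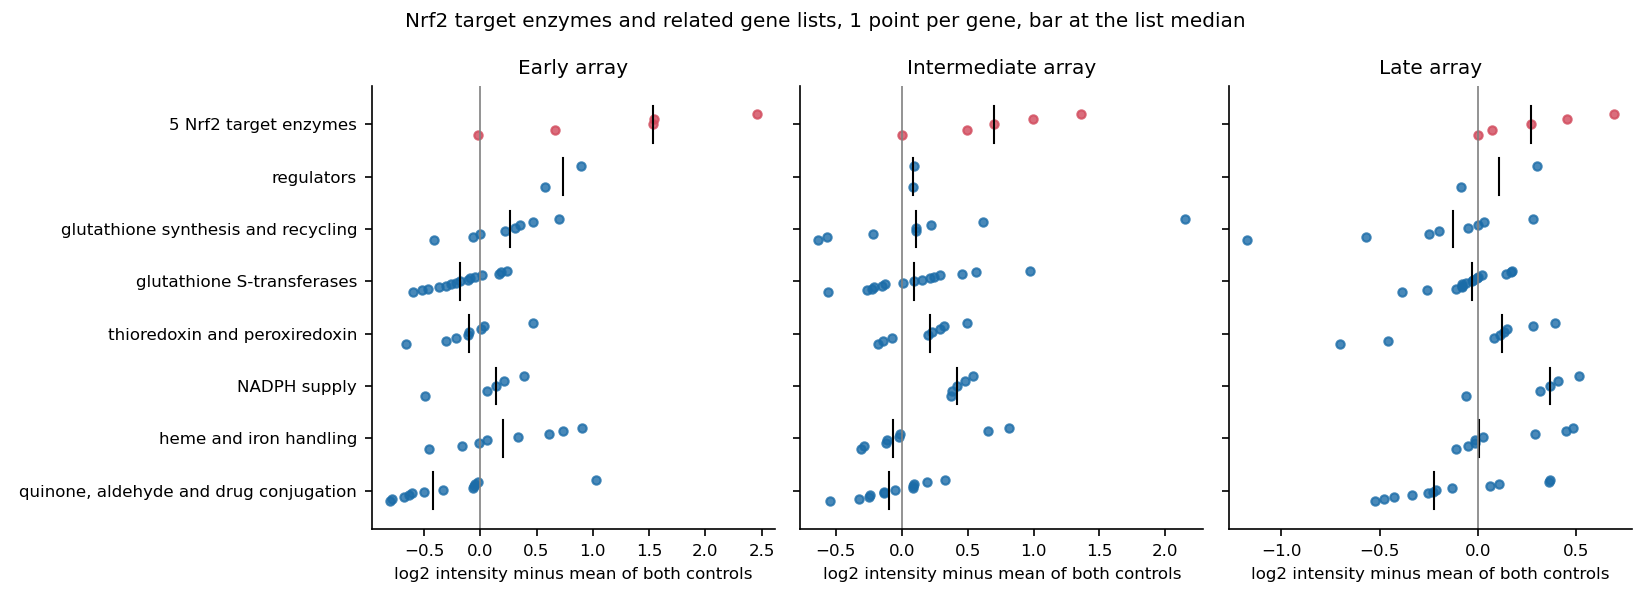
log2 intensity minus the mean of both control arrays for the 5 Nrf2 target enzymes (red) and 58 measured genes of 7 related lists (blue), 1 point per gene by its brightest probe set, on the early, intermediate and late arrays; black bars are list medians. On the early array the 5 enzymes have a median of 1.54 and the other lists medians between -0.42 and 0.74.

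Genes with the most similar profiles were looked up among 673 genes whose log2 values spanned at least 1 over the 5 arrays. With 5 points that share 1 scaling, Pearson's r over arrays is a description, and 37 genes exceeded 0.9 for Hmox1, 43 for Nqo1, 50 for Txnrd1 and 12 for Gclm. For Hmox1 (rc_AI179610_at) the nearest were the lactate transporter Slc16a1 (r = 0.993), the iron transporter Slc11a2 (0.985) and the mitochondrial chaperone Hspa9 (0.984). For Nqo1 they were the heat shock protein Hsph1 (0.992), mitochondrial superoxide dismutase Sod2 (0.991) and the chemokine Ccl3 (0.978). Txnrd1 (rc_AA891286_at) had the kinase Jak2 (0.999), Hsph1 (0.986) and the stress-induced pseudokinase Trib3 (0.986). For Gclm (rc_AI233261_i_at), which was highest on the intermediate array, they were the disulfide isomerase Pdia6 (0.984), Ggt1 (0.965) and Fgfr1-ps1 (0.965). This Gclm probe set spanned only 1.47-fold, its other probe sets had other orders, and Ggt1 was above the floor on the intermediate array alone. Gclc was above the floor on 1 array alone, so every gene with that pattern had an r of 1, Fat1, Fosl1 and Il6 among them, and no order is given.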

How the data were processed

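Lung RNA pools of 5 groups were measured on 1 array each. The authors deposited 1 linear intensity per probe set and array; no source used here names how it was calculated. Its 2% trimmed mean of 1001.38 to 1001.63 on every array shows that it had been scaled. The 59 control probe sets were left out. Genes were named by a platform annotation: 7006 probe sets had 1 symbol, 308 several and 1426 none. Intensities were scaled to a common median (factors 0.931 to 1.07), floored at the 40th percentile (172.53) and taken to log2.

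Single arrays were compared by a 2-fold rule without a test. The 3 exposed and 2 unexposed arrays were compared with limma 3.58.1 (lmFit, eBayes, Benjamini-Hochberg, threshold 0.05) on 6188 probe sets above the floor on at least 1 array. Named were all member probe sets, list genes passing on any exposed array (at most 4 a list, otherwise the 2 with the highest mean) and 3 similar genes a member. Members and lists were chosen with earlier results of these data known. Alternatives were other scalings, floors, folds, controls, probe set rules and left-out arrays. The steps were tested on simulated data. Detection calls and probe positions were not used here.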

Additional observations from a re-analysis of the deposited data

How the results depend on the processing

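Both Hmox1, both Txnrd1 and the bright Nqo1 probe set were called early under every scaling and floor tried. Early calls numbered 5 in these and with sham or untreated alone as control, except for 7 with the floor at the 20th percentile, 6 at 1.5-fold and 3 at 3-fold. With values as deposited, 75th percentile or quantile scaling, and floors at the 20th and 60th percentile, no called difference changed sign. Without the sham array, so against untreated alone, 3 member probe sets had an intermediate and 2 a late call of higher, against 0 and 0 with both controls; at 1.5-fold 3 were higher on the intermediate array. For sham against untreated the count of 2 fell to 1 with the floor at the 60th percentile and to 1 at 3-fold. At 1.5-fold the early array was above both later arrays in 5 member probe sets, not 3.

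Shares over all probe sets or genes were worked out for the main fold rule alone. The counts of calls at other settings, above and below, thus have no background beside them. For the other pathway genes, 1.5-fold gave 3 higher and 3 lower on the early array. It also gave 2 higher on the intermediate and 2 lower on the late array. Leaving out the sham array gave 2 higher and 1 lower on the early and 2 higher and 1 lower on the intermediate array, and leaving out the untreated array 2 higher on the intermediate array. The floor at the 60th percentile left 0 higher and that at the 20th gave 1 lower on the intermediate array; lower on the late array were 0 at 3-fold and 2 with the mean of all probe sets of a gene.

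In limma, 0 member probe sets passed under every alternative, leaving out each array in turn (0 to 0) included; the smallest member adjusted p over them lay between 0.41 and 0.86. Of all probe sets, 3 passed without a filter on dim probe sets, and otherwise 0. No paired analysis was possible because every group has 1 array. Signal over background limits Gclc and the second Nqo1 probe set, and also Gclm. S65555_g_at of Gclm read 182 (untreated) to 302 (early) and dropped out with the floor at the 60th percentile. With that floor, early minus sham of S65555_at fell from 0.49 to 0.08 on the log2 scale. Whether dim signal kept the Gclm folds small was not tested.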

Other observations

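The following values were singled out after they were seen. The aldehyde dehydrogenase Aldh3a1, which both Nrf2 and the aryl hydrocarbon receptor can induce, had the highest early difference from the mean of both controls among the 58 other pathway genes, 1.03 on the log2 scale.

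A second probe set of the iron transporter Slc11a2, rc_AA892390_s_at, read 1709 (early), 1061 (intermediate), 1110.04 (late), 648 (sham) and 643 (untreated). It was 2.64-fold and 2.66-fold above the controls on the early array and did not share the gap between sham and untreated of the main probe set. A further Slc11a2 probe set, AF008439_at, exceeded the floor at 319 (early) and 232 (late) alone, at least 1.85-fold and 1.34-fold above both controls. The constitutive heme oxygenase Hmox2 read between 341 and 388 on all 5 arrays, while Hmox1 ranged over 9.16-fold and 29.3-fold in its 2 probe sets.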
